A study of Homo sapiens with 6 samples.

Results

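The apolipoprotein L family comprises APOL1, APOL2, APOL3, APOL4, APOL5 and APOL6, and its members were taken as the rows of the deposited table whose only gene symbol in the platform annotation is 1 of these names. All 6 genes were found, each with 1 transcript cluster (the set of probes that reads 1 transcribed locus), out of 33297 clusters and 18417 genes with a symbol of their own. RNA of HEK293, a human line derived from embryonic kidney, was profiled with a biotin label on 6 Affymetrix Gene 1.0 ST arrays. Of these, 3 were titled treatment and 3 were titled control. The study asked which mediators accompany an anti-HIV effect seen with an empty plasmid. The sample sources give a Neo vector for treatment cells and a transient vector for control cells, whereas the design text sets cells transfected with the plasmid pCMV9 against untreated cells, so the groups are named here by their titles alone. No dose, time or culture is given for either group, and a p-value here covers only the variation from array to array, possibly no more than technical.

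Apolipoproteins L are lipid-binding, pore-forming or membrane-perturbing proteins, known as targets of interferon and of tumour necrosis factor. APOL1 is the secreted member, carried in blood on high-density lipoprotein particles, where it kills African trypanosomes; the other members lack its secretion signal and act inside cells. Their genes lie together on human chromosome 22, in a pair formed by APOL6 and APOL5 and a group formed by APOL3, APOL4, APOL2 and APOL1.

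Median intensity per array lay between 77.2 and 84.2, and Pearson's r across clusters was 0.956 to 0.985 for arrays of the same group and 0.957 to 0.981 for arrays of different groups (log2 scale). The array least like the others was treatment replicate 3, with a mean r of 0.963, and each member's change is given below with and without that array. The 7 markers fixed for HEK293 cells did not pass the test, and their summed intensity was 6385 to 6845 in treatment arrays and 7180 to 7424 in control arrays. Of these, keratins KRT8 and KRT18, vimentin (VIM) and neurofilaments NEFL and NEFM had group means of 889 to 1849 in treatment and 895 to 2095 in control. NEFH averaged 159 in treatment and 174 in control. PAX2 averaged 105.5 in treatment and 56.0 in control, a log2 change of 0.76 ± 0.203 (SE) at an unadjusted p under 0.05. Of 10 endothelial, 9 leukocyte and 8 hepatocyte markers measured, 0 passed limma over all clusters. CLDN5 and APOA1 alone among them had an unadjusted p under 0.05. Median intensities in treatment and control were 41.3 and 32.5 for endothelial, 31.8 and 35.0 for leukocyte and 26.6 and 21.2 for hepatocyte markers. Not all were dim: the leukocyte marker LCP1 averaged 1237 in treatment and 1339 in control, and the endothelial marker CDH5 882 and 776. All changes below are differences of log2(intensity + 16), treatment minus control, with the standard error (SE) of a limma fit over all clusters.

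Intensities of APOL6, APOL1 and APOL2 were several-fold higher in the treatment arrays, those of APOL3 and APOL4 were less than 2-fold higher, and those of APOL5 overlapped between the groups. In the limma fit over all clusters, 3 of the 6 members passed the threshold of 0.05 on the Benjamini-Hochberg adjusted p as higher in treatment, 0 passed as lower, and 3 did not pass. Over all clusters of the array, 0.357% passed as higher, 0.015% as lower and 0.372% in either direction. Every treatment array lay above every control array for 5 of the 6 members, against 7.47% of all clusters. The family was selected on the treatment against control differences of its members in this same contrast, although its members were then taken by name, so these counts describe it and support nothing further. The median change over the 6 members was 1.19, and over all clusters it was 0.01. In a bulk sample, more responding cells and more RNA per cell cannot be told apart.

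**Figure D1:**
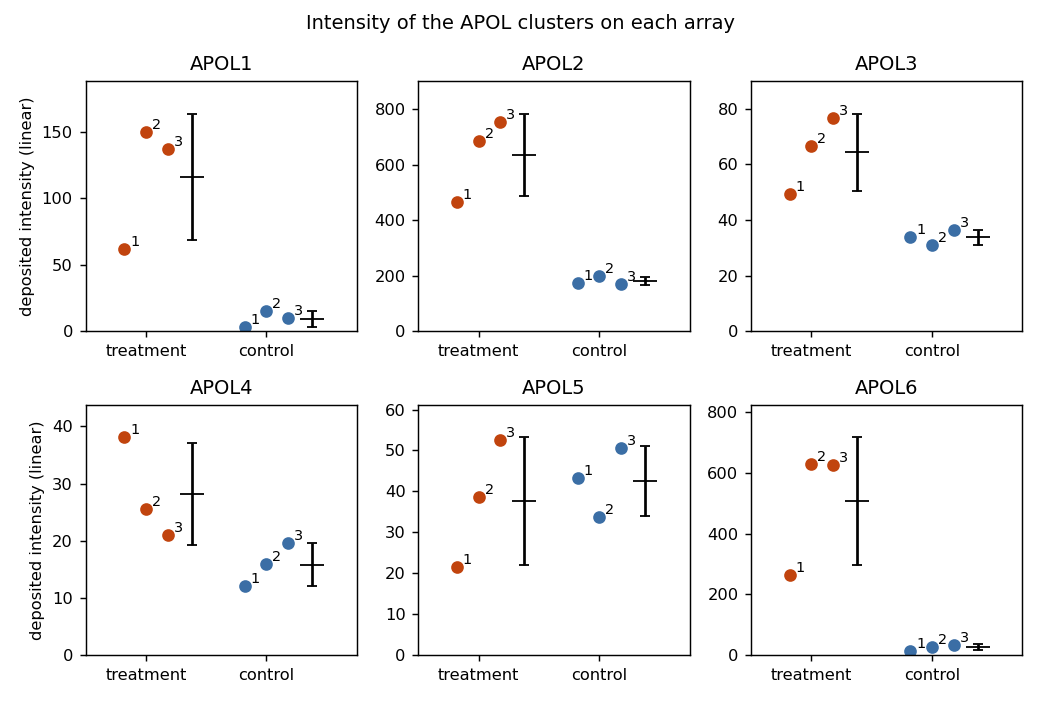
Deposited linear intensity (y axis, starting at 0, with its own scale in each panel) of each APOL cluster on the 3 treatment arrays (orange) and 3 control arrays (blue), with replicate numbers beside the points and the mean ± SD as a black bar. The groups stand apart for every member except APOL5, and treatment replicate 1 is the lowest treatment array in 5 of the 6 panels and the highest in that of APOL4.

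APOL6 carries a BH3-like segment, the helix that BCL2 family proteins use to bind each other, and drives mitochondrial cell death when overproduced. Its intensity was 265, 629 and 628 in treatment replicates 1, 2 and 3, against 13.8, 26.6 and 33.4 in control replicates 1, 2 and 3. The lowest treatment array was thus far above the highest control array. The means were 507 ± 210.2 in treatment and 24.6 ± 9.96 in control (SD, n = 3 each), a ratio of 20.6. On the log2 scale the change was 3.62 ± 0.311, with a 95% interval from 2.95 to 4.29, and it took rank 12 among the 33297 clusters ordered from the largest increase down. Without treatment replicate 3 it was 3.42, and without treatment replicate 1, the lowest of the 3, it was 4.02.

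APOL1, the trypanosome-killing member, gave intensities of 61.8, 149.9 and 137 in treatment replicates 1, 2 and 3, against 3.16, 15.1 and 10.2 in control replicates 1, 2 and 3. As for APOL6, replicate 1 was the lowest array of both groups, and the groups did not overlap. Its change was 2.33 ± 0.289 (95% interval 1.71 to 2.95; rank 39), 2.18 without treatment replicate 3 and 2.67 without treatment replicate 1. The ratio of its means, 116 ± 47.5 in treatment over 9.49 ± 5.995 in control (SD, n = 3 each), was 12.2, and it rests on a dim control signal.

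How dim can be read against 360 clusters of olfactory receptor genes, which are not known to be active in this line, with the reservation that probes of different genes differ in brightness. The 5th to 95th percentile of their group means ran from 5.39 to 67.4 in treatment and from 4.36 to 51.2 in control. APOL1 exceeded 98.1% of them in treatment and 28.9% in control, and APOL6 exceeded 100% in treatment and 79.4% in control. In the control arrays both members therefore lay within the range of these receptor clusters, and the size of their change moved with the value added to dim intensities. With 50 added in place of 16 their changes were 2.82 for APOL6 and 1.44 for APOL1, and with a plain log2 they were 4.35 and 3.78.

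APOL2, an intracellular member that is close to APOL1 in sequence and sits beside it in the genome, was the only member above the 95th percentile of that range in control arrays: it lay above 99.2% of olfactory receptor clusters in control arrays and 100% in treatment arrays. It gave 467, 685 and 752 in treatment replicates 1, 2 and 3, against 175, 197 and 171 in control replicates 1, 2 and 3. All treatment arrays were above all control arrays, and the control arrays were close together. The means were 635 ± 149 in treatment and 181 ± 14.2 in control (SD, n = 3 each), a ratio of 3.51. Its change was 1.70 ± 0.221 (95% interval 1.22 to 2.17; rank 69), 1.56 without treatment replicate 3 and 1.90 without treatment replicate 1. It moved little with the value added before log2, from 1.54 with 50 to 1.78 with a plain log2. APOL1 changed by more than APOL2 on the scale used here, while with 50 added APOL2 changed by more (1.54 against 1.44), so the order of these 2 members is not settled by these data.

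**Figure D2:**
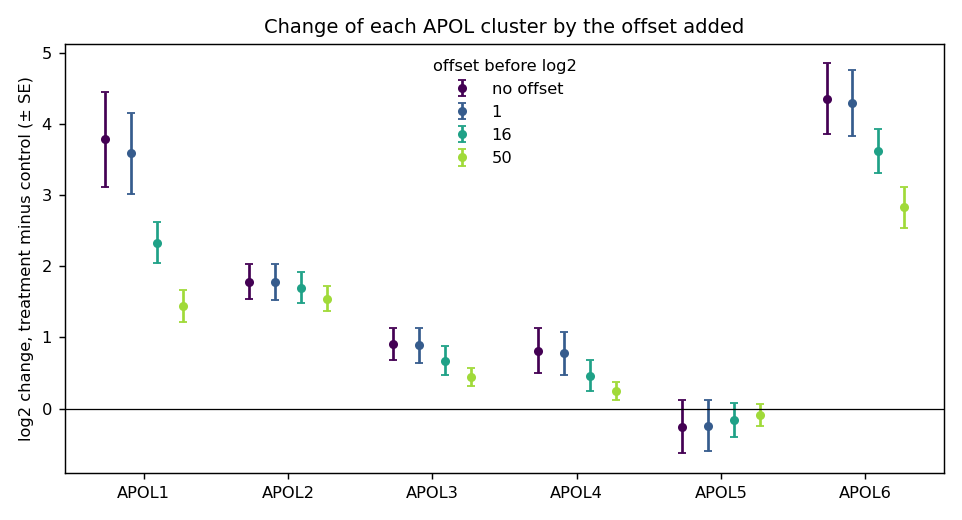
Log2 change, treatment minus control, of each APOL cluster (y axis, points with SE) when no value, 1, 16 or 50 was added to the intensity before log2. APOL2 stays between 1.54 and 1.78, whereas APOL1 runs from 1.44 with 50 added to 3.78 with none added, and APOL5 stays below 0 throughout.

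The calls of all 3 members ended with a plain log2, and those of APOL1 and APOL2 ended with 1 added, where APOL6 kept its call. The same 2 settings lowered the calls over the whole table to 40 and 58 clusters, against 124 with 16 added.

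APOL3, an interferon-induced protein of the cytosol that dissolves the membranes of bacteria, gave 49.2, 66.8 and 76.8 in treatment replicates 1, 2 and 3, against 34.0, 30.9 and 36.4 in control replicates 1, 2 and 3. Every treatment array was above every control array, with treatment replicate 1 nearest to the control arrays. The means were 64.3 ± 14.0 in treatment and 33.8 ± 2.74 in control (SD, n = 3 each), above 94.7% and 86.9% of the olfactory receptor clusters of the same arrays. The change of 0.68 ± 0.207 (95% interval 0.23 to 1.12; rank 476) did not pass over all clusters. It was 0.56 without treatment replicate 3 and 0.82 without treatment replicate 1, and it passed under none of its 16 alternatives.

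APOL4, a little-studied intracellular member, gave 38.1, 25.5 and 20.9 in treatment replicates 1, 2 and 3, against 12.0, 15.9 and 19.5 in control replicates 1, 2 and 3. The groups did not overlap, but treatment replicate 3 and control replicate 3 were close. The change of 0.46 ± 0.215 (95% interval from just below 0 to 0.92; rank 2051) did not pass. Without treatment replicate 1 it was 0.31 and without treatment replicate 3 it was 0.58. Over the olfactory receptor clusters, changes had a median of 0.12, against 0.01 over all clusters. Their 5th to 95th percentile ran from -0.30 to 0.51. The changes of APOL4 and APOL5 were inside this spread, and those of the other members were above it. As the family was selected on this contrast, this is described only.

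APOL5, whose function is not established, gave 21.5, 38.6 and 52.7 in treatment replicates 1, 2 and 3, against 43.2, 33.6 and 50.7 in control replicates 1, 2 and 3. The groups overlapped, and the treatment arrays spanned the whole control range. The change was -0.16 ± 0.243, with a 95% interval from -0.68 to 0.36. It was -0.36 without treatment replicate 3 and 0.077 without treatment replicate 1, so its direction was not fixed. APOL5 lay within the olfactory receptor range in both groups, above 85.6% of those clusters in treatment and 92.2% in control.

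The treatment arrays differed in how far the family moved. Relative to the control mean, APOL6 was at 2.82, 4.02 and 4.02 in treatment replicates 1, 2 and 3, and APOL1 at 1.64, 2.73 and 2.61, on the log2 scale. APOL2 was at 1.30, 1.83 and 1.97. With 16 added, APOL6 thus stood highest in each treatment array, and APOL1 stood above APOL2, an order that turned for the overall change of APOL1 and APOL2 with 50 added (above). APOL3 exceeded APOL4 in replicates 2 and 3 but not in replicate 1, where APOL4 was at 0.77 and APOL3 at 0.39. The lower standing of treatment replicate 1 was shared by the genes called higher in general: that array was the lowest of the 3 in 96 of the 119 clusters that passed as higher (80.7%), and the highest in 1 of them. Control replicate 1, the lowest control array for APOL6, APOL1 and APOL4, was the lowest control array in 77 of those 119 clusters. These orders were not counted over all clusters, so how far they hold across the array is not known. Control replicate 1 also had the lowest median intensity of the arrays (77.2). Treatment replicate 1, at 83.3, did not have the lowest median of its group, which was 80.5 in treatment replicate 2.

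The 9 neighbouring genes examined around the family on chromosome 22 did not pass. In the order of the RefSeq annotation of GRCh38.p14 the 15 genes examined run HMOX1, MCM5, RASD2, MB, APOL6, APOL5, RBFOX2, APOL3, APOL4, APOL2, APOL1, MYH9, TXN2, FOXRED2 and EIF3D, with no other protein-coding gene between them. Of the 9 neighbours outside the family, 0 passed limma in either direction and 0 had an unadjusted p under 0.05, and their changes ran from -0.32 to 0.26 with a median of -0.20. MB, which encodes myoglobin and precedes APOL6, gave 84.2 ± 24.5 in treatment and 66.2 ± 5.15 in control (SD, n = 3 each), a change of 0.26 ± 0.225. RBFOX2, a splicing factor gene between the 2 APOL groups, gave 467 ± 112 in treatment and 480 ± 44.1 in control, a change of -0.06 ± 0.221. MYH9, the non-muscle myosin heavy chain gene that follows APOL1, gave 933 ± 113 in treatment and 1150 ± 86.0 in control, a change of -0.30 ± 0.199. In MYH9 and EIF3D every treatment array was below every control array, but the share of all clusters that separate in this direction was not counted. In MYH9 the gap was narrow, 1051 in treatment replicate 1 against 1054 in control replicate 3. The intervals of APOL6, APOL1 and APOL2 lay wholly above those of MB, RBFOX2 and MYH9, and the interval of APOL5, directly next to APOL6, did not reach that of APOL6. The difference between neighbouring genes was not itself tested. Because the family was selected on this same contrast, the separation of intervals is described only and supports nothing further.

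**Figure D3:**
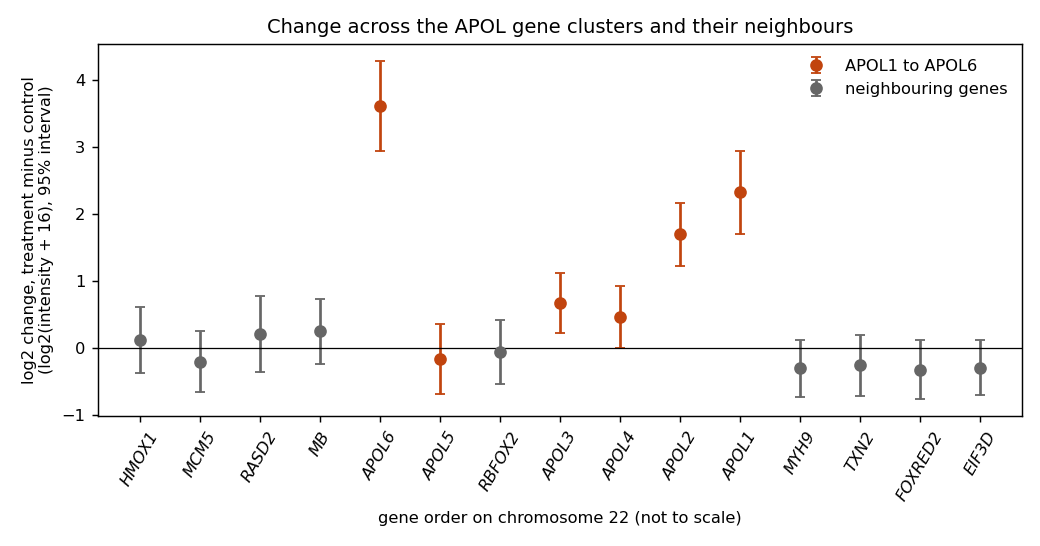
Log2 change, treatment minus control, with its 95% interval (y axis) for the 6 APOL genes (orange) and 9 neighbouring genes (grey) in their order on chromosome 22 (x axis, not to scale). APOL6, APOL2 and APOL1 stand above 1, and the 9 neighbours lie between -0.32 and 0.26.

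APOL1, APOL2, APOL3 and APOL4 are near relatives in sequence, so labelled material from 1 member could bind probes of another. Such cross-binding was not tested because probe sequences were not used here. Their changes were unequal, from 0.46 for APOL4 to 2.33 for APOL1. APOLD1, a distant relative on another chromosome, gave 73.3, 41.0 and 36.4 in treatment replicates 1, 2 and 3, against 82.0, 77.7 and 75.6 in control replicates 1, 2 and 3. Its change of -0.55 ± 0.229 did not pass. The groups did not overlap, with treatment lower, but the share of all clusters that separate in this direction was not counted.

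The genes whose profile over the 6 arrays was nearest to that of APOL6, by the root mean square difference in log2 units after each gene was set relative to its control mean, were OAS1 (0.222), IFITM1 (0.26), MX1 (0.306), CMPK2 (0.36) and OASL (0.406). OAS1 makes the activator of RNase L, IFITM1 limits the entry of viruses, and MX1 is a dynamin-like GTPase that blocks them. The profile of APOL1 was nearest to those of PSMB9 (0.152), an immunoproteasome subunit, SHFL (0.163), an inhibitor of ribosomal frameshifting, UBA7 (0.204), the enzyme that activates ISG15, HELZ2 (0.237) and NMI (0.254). In all 10 of these genes, as in APOL6 and APOL1, treatment replicate 1 was the lowest treatment array. The genes were selected for their likeness, and the measure takes in the contrast between the groups.

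**Figure D4:**
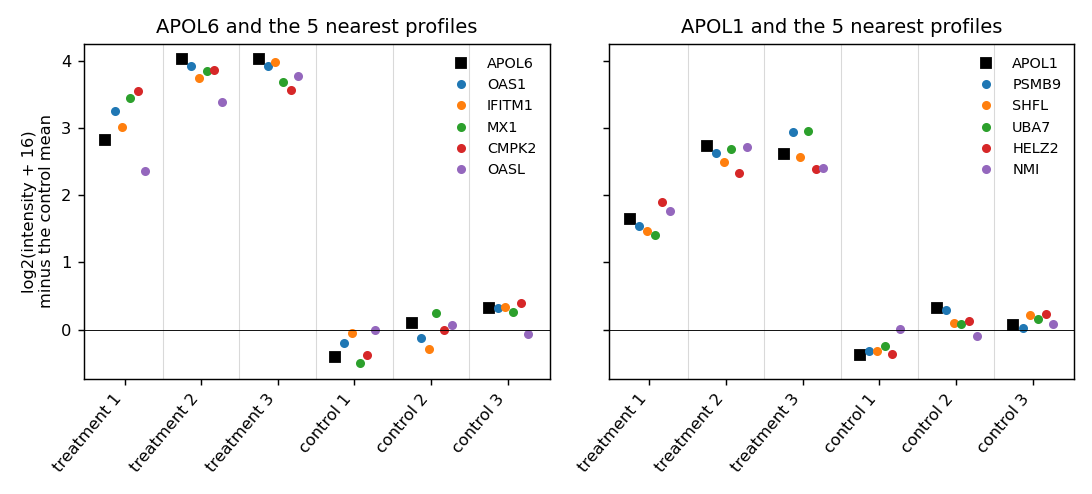
Log2(intensity + 16) relative to the control mean (y axis) on each of the 6 arrays (x axis) for APOL6 (left, black squares) and APOL1 (right, black squares) and the 5 genes nearest to each (coloured points). APOL6 lies at 2.82 on treatment replicate 1 and at 4.02 on the other 2 treatment arrays, and each named gene stands above 1 on all treatment arrays.

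Genes related to the family by function are set beside all clusters, of which 0.372% passed in either direction and 7.30% had an unadjusted p under 0.05. Of 21 measured genes for other apolipoproteins and their partners on lipoprotein particles, 0 passed limma, 2 had an unadjusted p under 0.05 and the median change was -0.04. APOA1, the main protein of the particles that carry APOL1 in blood, gave 79.5 ± 37.4 in treatment and 44.9 ± 4.95 in control (SD, n = 3 each), a change of 0.58 ± 0.265. HPR, which encodes the haptoglobin-related protein that travels with APOL1, gave 33.8 ± 8.04 in treatment and 28.1 ± 3.41 in control, a change of 0.17 ± 0.204. Of 22 measured BCL2 family genes, the group whose binding segment APOL6 resembles, 0 passed and 3 had an unadjusted p under 0.05, with a median of 0.07. These 3 were BCL2L14 (0.99 ± 0.232), BCL2L15 (0.88 ± 0.227) and BCL2 (0.55 ± 0.229). BCL2L14 averaged 47.2 in treatment and 15.5 in control, and BCL2L15 26.5 and 7.27. Both were dim, within the 5th to 95th percentile of the olfactory receptor clusters in both groups. Of 19 measured genes of interferon signalling and its feedback control, 3 passed as higher and 0 as lower, with a median of 0.19. They were USP18, the feedback protease (1.84 ± 0.195), and the transcription factors IRF7 (1.67 ± 0.258) and IRF1 (1.13 ± 0.205). Whether any of them acted on the family was not tested.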

How the data were processed

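The deposited table holds linear intensity values, 1 per transcript cluster and array. Partek software made them, per the submitters' processing notes, whereas the sources used here name no background correction, normalization or genome build. Columns were matched to samples by accession and groups were taken from the titles. Of 33297 clusters, 19460 had 1 gene symbol in the platform annotation, 1754 several and 12083 none. The brightest cluster represented a gene with several. Because intensities approach 0, 16 was added before log2, which understates the change of dim clusters. Each cluster was tested with limma 3.58.1 in R 4.3.3 (lmFit and eBayes, two-sided, no block), adjusted by Benjamini-Hochberg over the whole table at a threshold of 0.05. The pipeline was also run on simulated data, with changes placed only in clusters of mean intensity above 50 and noise drawn with 16 added. That run does not bear on dimmer clusters or on the choice of offset. The number of arrays limits the precision. The members, gene lists, offset and alternatives were chosen with earlier results of these data known. Genes named are the members, up to 3 with the lowest p per list, the markers, and the genes nearest in profile. The last are the 5 nearest to each of the 2 members with the largest change at an offset of 16. These 2 members are APOL6 and APOL1 (at 50, APOL2 exceeds APOL1). HPR, MB, RBFOX2, LCP1 and CDH5 were added after their values were seen.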

Additional observations from a re-analysis of the deposited data

How the results depend on the processing

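The count of members past the threshold was 0 on a plain log2 scale and 1 when the offset was 1. It was 3 with an offset of 50, quantile normalization, median centring, a filter on the lowest quartile of intensity, an intensity trend or a robust prior. An adjusted p threshold of 0.01 or a required 2-fold change also gave 3. With an offset of 50 APOL1 passed only narrowly (limma adjusted p of 0.0497). The required 2-fold change left all 124 clusters in place, so it could not lower the count. A filter at the median intensity removed all members but APOL2 and APOL6, and both passed. Both intensity filters used the mean over all 6 arrays, treatment arrays included. In control arrays APOL6 exceeded 28.8% of clusters and APOL1 12.8%. APOL6 thus cleared the median filter, and APOL1 the lowest-quartile filter, only through its treatment values, so these settings give no separate support. Leaving out 1 array at a time gave 3 members each time. Over all clusters the count of 124 became 40 on a plain log2 scale, 58 when the offset was 1, 69 with control replicate 1 left out and 82 with treatment replicate 2 left out, within a range of 69 to 129 over the 6 arrays. The replicate number as a block gave 105 clusters and 3 members, while deviations of same-numbered arrays from their group means correlated at -0.17, 0.08 and -0.36 for replicates 1, 2 and 3, so the numbers were not taken as pairs, and 0 arrays correlated best with their own number. APOL5 alone changed direction: its change was 0.077 without treatment replicate 1 and ran down to -0.36, without treatment replicate 3. Over their alternatives the changes ran from 2.82 to 4.35 for APOL6, 1.44 to 3.78 for APOL1, 1.54 to 1.90 for APOL2, 0.44 to 0.91 for APOL3 and 0.24 to 0.82 for APOL4. With 1 cluster per gene the count of members was also 3, but the prior gave all genes 1 common variance. The p-values of that setting are therefore not quoted, and its count gives no separate support.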
